A study of Mus musculus with 2 samples.

Results

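The interferon-inducible GTPases described here are 10 genes of 2 families in mouse bone marrow. They were taken by gene symbol from a single-cell RNA-seq table of 25943 genes, and all 10 were in it. The 6 members of the immunity-related GTPase (IRG) family are Irgm1, Igtp, Iigp1, Ifi47, Tgtp1 and Tgtp2. The 4 members of the guanylate-binding protein (GBP) family are Gbp2, Gbp3, Gbp5 and Gbp7. The study set marrow from a mouse stroke model, made by middle cerebral artery occlusion (MCAO), which blocks a main artery of the brain, beside marrow of control mice. There was 1 MCAO library from male wild-type mice of 8 to 10 weeks, and 1 control library from male wild-type mice of the same age. Unsorted marrow cells were captured in BD Rhapsody microwells, a system that tags the 3′ end of each RNA molecule with a unique molecular identifier (UMI). How many mice each library came from, how long after the occlusion marrow was taken and what was done to the control mice are not given in the sources used here. With 1 library per group, no difference below has a replicate check, and every interval covers counting error only.

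Both families are GTPases that interferons induce in many cell types. Interferon gamma and type I interferon signal through JAK kinases to target promoters, where the gamma-activated site (GAS) and the interferon-stimulated response element (ISRE) are the known response elements. In mouse macrophages, IRG effector proteins load onto the vacuole that holds Toxoplasma or Chlamydia and break its membrane. IRGM proteins stay on the cell's own membranes and hold the effectors inactive there. GBP proteins coat vacuoles and cytosolic bacteria, and the autophagy conjugation machinery is needed to place both families. In marrow, Irgm1 is known in the mouse for keeping blood stem cells and lymphocytes in number under interferon.

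In mm10 coordinates, the 4 GBP members lie in 1 run on chromosome 3 at chr3:142493978-142638008, all on the plus strand. Irgm1, Tgtp1, Tgtp2 and Ifi47 lie together at chr11:48861968-49096974, and Igtp lies apart on the same chromosome at chr11:58199556-58207591. Iigp1 is on chromosome 18 at chr18:60376027-60392634. Tgtp1 and Tgtp2 are near-identical copies. All of the 100-base windows in the last 1000 bases of each transcript are shared between them, so the split of reads between the pair is uncertain and their sum is given beside them. No such window of the other 8 members occurred in another gene's transcripts. Igtp overlaps Irgm2 on the same strand, and Gbp7 overlaps the gene model Gm43802. Ifi47 overlaps Olfr56 on the same strand, Tgtp1 overlaps the gene model Gm12185 on the same strand, and Tgtp1 and Tgtp2 overlap Olfr56 on the opposite strand.

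Promoter windows of 300 bases, from 250 before to 50 after the annotated start, were taken from RefSeq (GRCm38.p6) for 9 members. They were searched on both strands for a GAS core, TTCNNNGAA, and an ISRE core, GAAANNGAAA. The ISRE core was in the promoter of 8 of 9 members and in 3.44% of 32851 mouse promoters of the same length. The GAS core was in 5 of 9 members (Igtp, Tgtp1, Tgtp2, Gbp5 and Gbp7) and in 8.30% of all promoters, and both cores were in the same 5 members and in 0.454% of all promoters. The Ifi47 window held neither core. Gbp3 had windows at 2 annotated starts, and the ISRE core was in 1 of them. These matches are descriptions of letters and were not tested as binding sites.

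Igtp, Tgtp1 and Tgtp2 shared a stretch of 31 bases in which the ISRE core follows the GAS core with 2 bases between them, and it is shown because these 3 genes of 2 chromosome 11 loci carry the same arrangement. The capitals mark the 2 cores. The Igtp stretch is at chr11:58199503-58199533 on the plus strand, the Tgtp1 stretch at chr11:48992312-48992342 and the Tgtp2 stretch at chr11:49064271-49064301, both on the minus strand.
Igtp: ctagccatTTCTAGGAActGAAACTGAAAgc
Tgtp1: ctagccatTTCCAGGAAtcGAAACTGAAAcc
Tgtp2: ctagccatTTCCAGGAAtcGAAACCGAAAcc
Igtp and Tgtp1 had identical letters at 27 of the 31 positions, Igtp and Tgtp2 at 26, and Tgtp1 and Tgtp2 at 30.

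The next 4 sequences are the 120 bases before the annotated start of the IRGM regulator Irgm1 and of 3 GBP members. They are shown because the ISRE core recurs close to the start in each, at 30 and 24 bases before it in Irgm1, 59 in Gbp2, 45 and 39 in Gbp3 and 53 in Gbp7. The paired ISRE matches of Irgm1 overlap each other, as do those of Gbp3, and Gbp7 also holds GAS cores 106 and 87 bases before its start. Capitals mark the cores. The Irgm1 sequence is at chr11:48871421-48871540 on the minus strand. Those of Gbp2, Gbp3 and Gbp7 are at chr3:142620543-142620662, chr3:142559924-142560043 and chr3:142530216-142530335 on the plus strand.
Irgm1: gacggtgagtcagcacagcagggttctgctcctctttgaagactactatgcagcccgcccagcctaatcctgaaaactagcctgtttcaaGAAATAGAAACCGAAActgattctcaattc
Gbp2: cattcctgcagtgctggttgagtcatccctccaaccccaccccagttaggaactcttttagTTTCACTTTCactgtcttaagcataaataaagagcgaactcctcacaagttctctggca
Gbp3: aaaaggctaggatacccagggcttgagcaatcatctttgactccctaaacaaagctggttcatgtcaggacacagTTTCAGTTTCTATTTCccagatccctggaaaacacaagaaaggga
Gbp7: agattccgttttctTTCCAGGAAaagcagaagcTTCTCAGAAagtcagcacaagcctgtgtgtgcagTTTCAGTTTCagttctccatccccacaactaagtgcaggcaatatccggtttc

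Median depth was 4952 UMIs per cell in the MCAO library (5398 cells, 35401492 UMIs in all) and 3344 in the control library (5212 cells, 25886279 UMIs in all). Both libraries were clustered together with 42 genes, the members and interferon targets, left out, and clusters were named from marker lists. Each named cluster had between 6 and 12 detected markers of its own list. The comparison below has 14 populations, 13 named classes and cluster 14, which stayed unnamed and was led by Atp1b2 and Car1. Eosinophil-like and plasma-cell-like cells were too few to compare. A level is a gene's summed UMIs per 10000 UMIs of its population, and its exact Poisson interval is at 95%. UMIs were counted per gene and not per length, so levels are compared between classes and libraries within a gene and never between genes.

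Summed over the 10 members, T-cell-like cells had the highest level in both libraries and pre-neutrophil-like cells the lowest. The T-cell-like level was 11 UMIs per 10000 in the MCAO library (95% interval 9.92 to 12.2) and 12.8 in the control library (11.7 to 14). Pre-neutrophil-like cells, the dividing precursors of neutrophils, had 1.6 UMIs per 10000 in the MCAO library and 2.37 in the control library. The same classes were highest and lowest under all 5 alternatives tried for the class order. Between these ends, the sum was 6.38 (MCAO) against 10.7 (control) in macrophage-like cells, 5.86 (MCAO) against 8.02 (control) in B-cell-like cells and 5.51 (MCAO) against 8.63 (control) in monocyte-like cells. It was 4.55 (MCAO) against 6.47 (control) in mature-neutrophil-like cells, 2.09 (MCAO) against 2.54 (control) in immature-neutrophil-like cells and 2.57 (MCAO) against 3.51 (control) in promyelocyte-like cells. The summed level was thus lowest in the dividing and granule-making stages of the neutrophil line and higher in its mature stage in both libraries. Of the 13 pairs of neighbours in the order of the populations, the interval of the ratio between the pair includes 1 for 9 pairs in the MCAO library and 7 in the control library. In the MCAO library these are T-cell-like and NK-cell-like cells, and every pair of neighbours from macrophage-like down to erythroid-like cells. In the control library they are cluster 14 and monocyte-like cells, every pair from B-cell-like down to plasmacytoid-dendritic-like cells, and the immature-neutrophil-like and pre-neutrophil-like stages.

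The IRG sum was 4.52 (MCAO) against 6.07 (control) in plasmacytoid-dendritic-like cells, close to its B-cell-like level of 4.18 (MCAO) against 6.06 (control), whereas the GBP sum was 0.328 (MCAO) against 0.341 (control) in plasmacytoid-dendritic-like cells and 1.68 (MCAO) against 1.96 (control) in B-cell-like cells. The plasmacytoid-dendritic-like class had the lowest GBP sum of the 14 populations in both libraries. It also holds cells with markers of conventional dendritic cells, the antigen-presenting kind, whereas plasmacytoid dendritic cells are known as producers of type I interferon. A finer clustering at resolution 2 drew 117 MCAO and 115 control cells as plasmacytoid-dendritic-like and 54 MCAO and 32 control cells, led by Cd209a, H2-Ab1 and Clec9a, as conventional-dendritic-like. The GBP sum was 0.187 (MCAO) against 0.41 (control) in the finer plasmacytoid-dendritic-like cluster, from 11 MCAO and 21 control UMIs, and 0.557 (MCAO) against 0.186 (control) in the conventional-dendritic-like one, from 23 MCAO and 4 control UMIs. Mature-neutrophil-like cells had a GBP sum of 2.59 UMIs per 10000 in the MCAO library and 3.47 in the control library, exceeded among the 14 populations by T-cell-like cells at 4.41 (MCAO) against 4.29 (control) in both libraries and by NK-cell-like cells at 4.98 (MCAO) against 3.12 (control) in the MCAO library alone. Their IRG sum of 1.96 (MCAO) against 3 (control) was below that of monocyte-like cells, at 3.48 (MCAO) against 5.69 (control). Across the 8 named classes in which both libraries had 100 cells or more, Pearson's r between the log2 levels of the family sums was 0.12 over 16 points, where each class gives a point per library and points of a library share its depth.

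**Figure D1:**
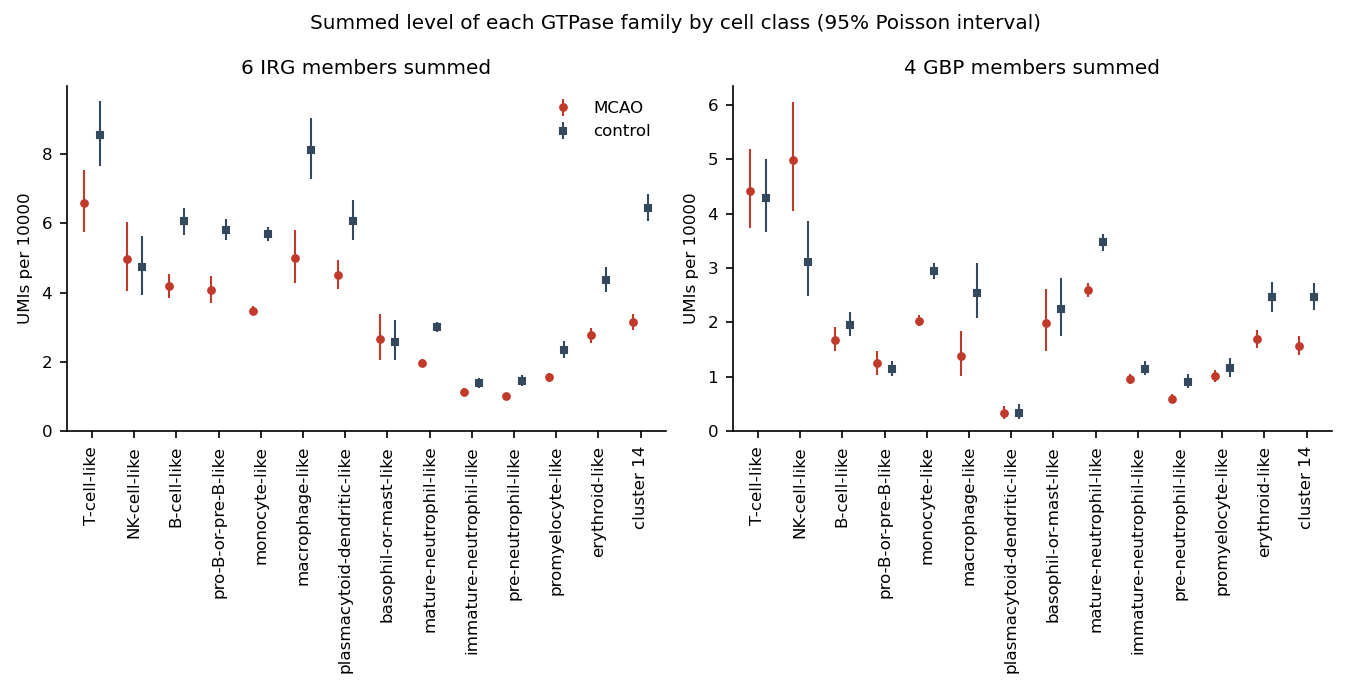
Summed level (UMIs per 10000) of the 6 IRG members (left) and the 4 GBP members (right) in 14 cell populations, with MCAO as red circles left of control as dark squares and exact Poisson 95% intervals. The GBP sum is lowest in plasmacytoid-dendritic-like cells, at 0.328 (MCAO) against 0.341 (control), where the IRG sum is 4.52 (MCAO) against 6.07 (control).

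Of the IRGM regulators, Irgm1 was highest in the B line. B-cell-like cells had 1.67 UMIs per 10000 in the MCAO library and 2.4 in the control library, and pro-B-or-pre-B-like cells had 1.52 (MCAO) against 2.09 (control). The level was 1.18 (MCAO) against 1.81 (control) in monocyte-like cells, 1.2 (MCAO) against 2.05 (control) in erythroid-like cells and 0.894 (MCAO) against 1.35 (control) in mature-neutrophil-like cells. It was lowest in the neutrophil precursors, with 0.349 (MCAO) against 0.544 (control) in pre-neutrophil-like and 0.395 (MCAO) against 0.493 (control) in promyelocyte-like cells. T-cell-like cells, which led the member sum, had an Irgm1 level of 0.622 (MCAO) against 1.18 (control), below the B-cell-like level with intervals that do not overlap in either library.

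Igtp, also called Irgm3 and the other IRGM member here, had its highest level in T-cell-like cells, at 1.39 UMIs per 10000 in the MCAO library and 1.52 in the control library. Mature-neutrophil-like cells had 0.563 (MCAO) against 0.695 (control), above monocyte-like cells at 0.299 (MCAO) against 0.501 (control) in both libraries with intervals that do not overlap. That order is the reverse of the Irgm1 order for the same classes. Promyelocyte-like cells were lowest in the MCAO library, at 0.15, against 0.358 in the control library, where pre-neutrophil-like cells were lowest at 0.31.

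Among the effector IRG genes, Iigp1, which encodes Irga6, was highest in macrophage-like cells. Macrophage-like cells had 1.29 UMIs per 10000 (95% interval 0.94 to 1.74) in the MCAO library and 2.3 (1.86 to 2.81) in the control library. Plasmacytoid-dendritic-like cells followed in both libraries with 0.347 (MCAO) against 0.778 (control), and cluster 14 had 0.196 (MCAO) against 0.565 (control). Mature-neutrophil-like cells gave 6 Iigp1 UMIs from 1643 MCAO cells and 7 from 1696 control cells. The Iigp1 counts rest on few cells. The macrophage-like UMIs came from 14 of 61 MCAO cells and 23 of 91 control cells, and 24 of the 94 control UMIs sat in a single cell.

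Ifi47, which encodes Irgd, was highest in T-cell-like cells, at 3.52 UMIs per 10000 in the MCAO library and 4.11 in the control library, followed by NK-cell-like cells at 2.89 (MCAO) against 3.12 (control). The plasmacytoid-dendritic-like level was 2.26 (MCAO) against 2.51 (control) and the monocyte-like level 1.85 (MCAO) against 2.88 (control). Mature-neutrophil-like cells had 0.473 (MCAO) against 0.861 (control) and immature-neutrophil-like cells 0.355 (MCAO) against 0.454 (control), while promyelocyte-like cells had 0.954 (MCAO) against 1.26 (control). Taken as whole classes at full depth, the earliest named stage of the neutrophil line thus had the highest Ifi47 level. At full depth, intervals of the promyelocyte-like and mature-neutrophil-like levels do not overlap in either library. With every cell thinned to the same depth, the promyelocyte-like level was 0.837 (MCAO) against 0.833 (control), from 18 MCAO and 8 control UMIs. The mature-neutrophil-like level was then 0.658 (MCAO) against 1.06 (control). Promyelocyte-like cells were thus the higher of the pair in the MCAO library and the lower in the control library at equal depth.

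Tgtp1 and Tgtp2, which encode Irgb6 proteins named for T-cell-specific expression, were summed because their reads cannot be told apart at the 3′ end. The sum was 0.888 UMIs per 10000 in the MCAO library and 1.57 in the control library in T-cell-like cells, from 30 MCAO and 60 control UMIs. Cluster 14 had 0.46 (MCAO) against 1.54 (control), macrophage-like cells 0.294 (MCAO) against 1.03 (control) and B-cell-like cells 0.19 (MCAO) against 0.447 (control). Mature-neutrophil-like cells were lowest in the MCAO library, at 0.0195, against 0.0864 in the control library. In the control library immature-neutrophil-like cells were lowest, at 0.0381. Of the pair as deposited, Tgtp1 had 47 MCAO and 87 control UMIs in all cells and Tgtp2 had 388 MCAO and 851 control UMIs, a split that the shared sequence leaves uncertain.

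**Figure D2:**
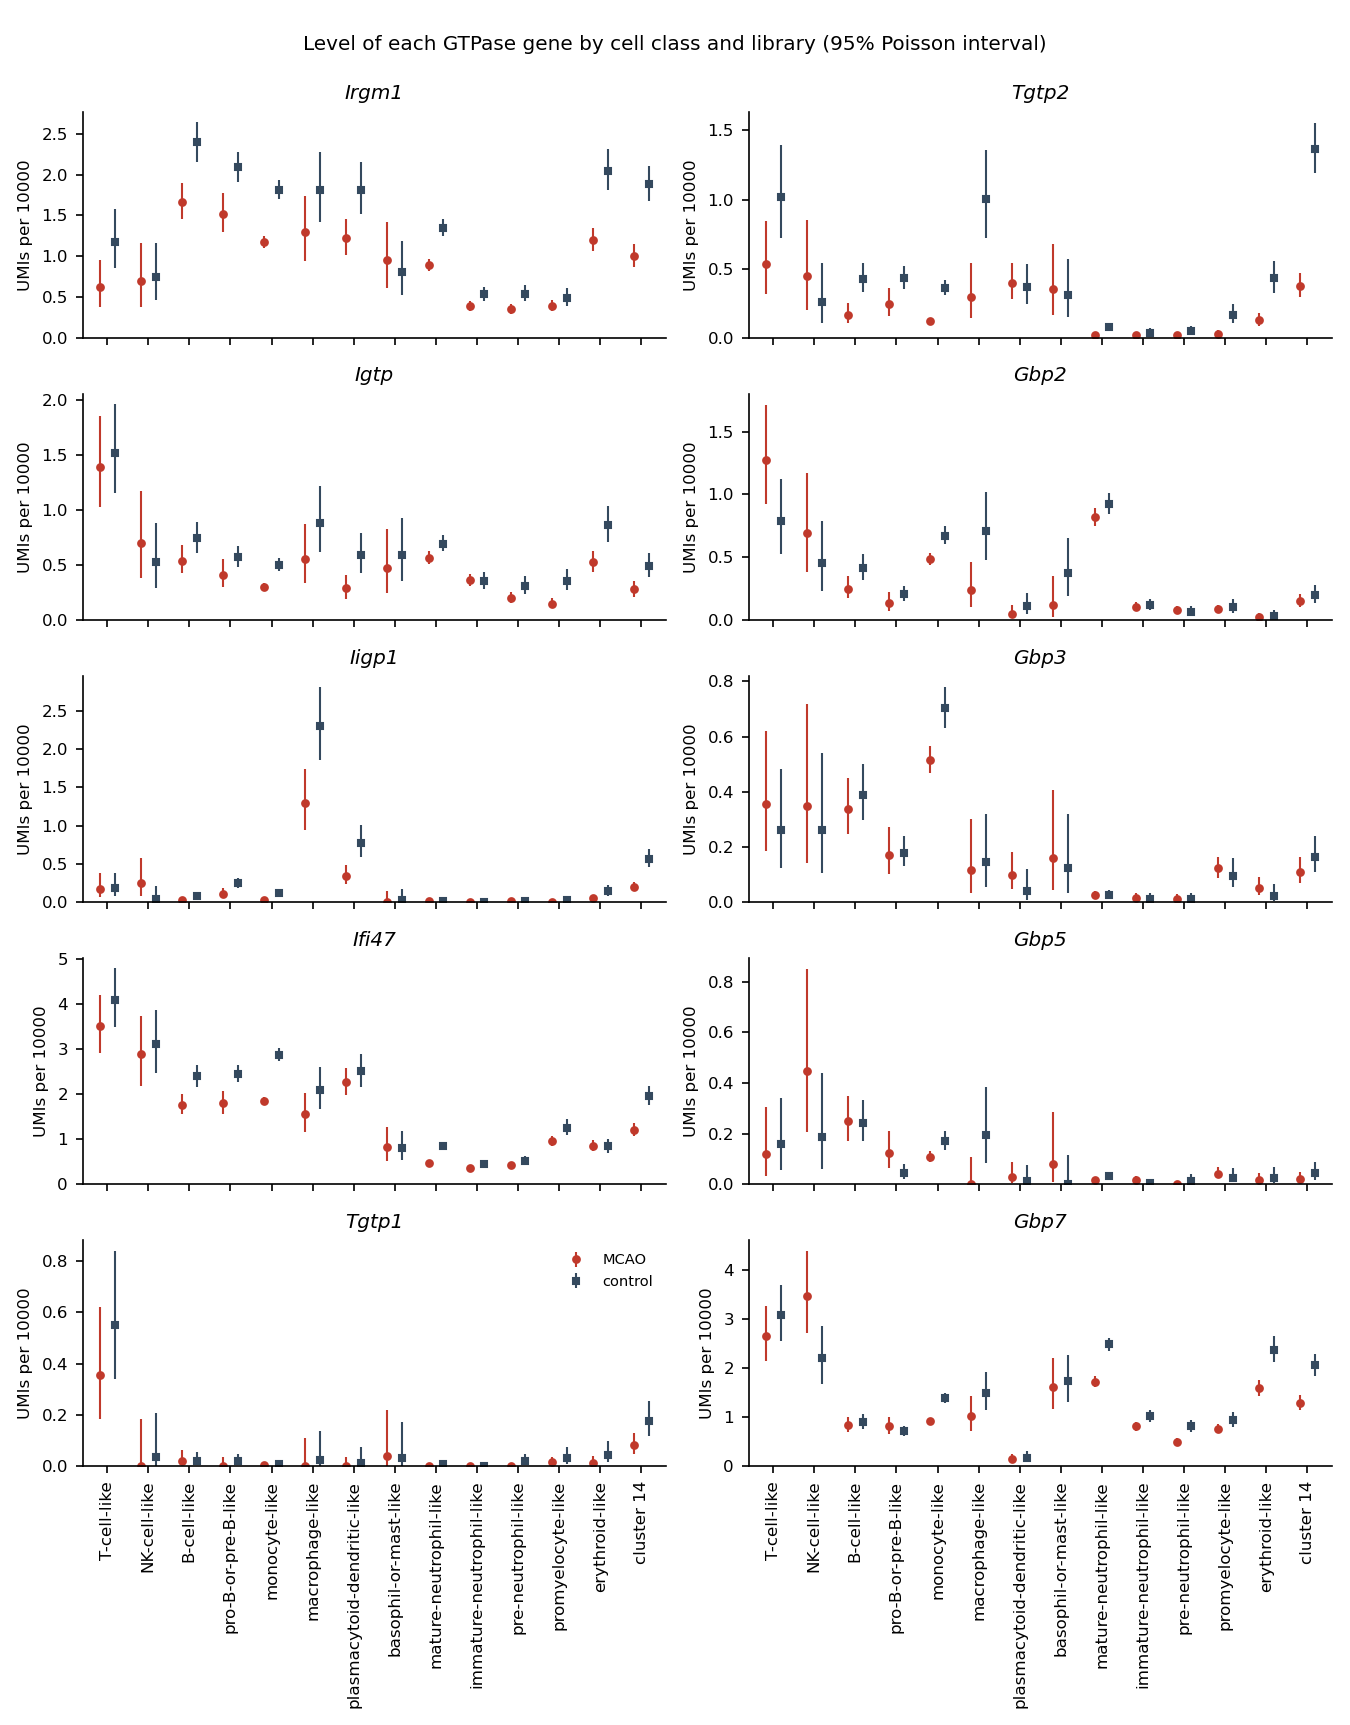
Level (UMIs per 10000, linear axis from 0, scaled per gene) of each of the 10 genes in 14 cell populations, with MCAO as red circles left of control as dark squares and exact Poisson 95% intervals. Iigp1 stands out in macrophage-like cells at 1.29 (MCAO) against 2.3 (control), Gbp3 in monocyte-like cells at 0.515 (MCAO) against 0.703 (control), and Gbp2 and Gbp7 are above 0.8 in mature-neutrophil-like cells of both libraries.

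Gbp2, a GBP that coats bacteria and parasite vacuoles, was high in mature-neutrophil-like and T-cell-like cells. The mature-neutrophil-like level was 0.821 UMIs per 10000 in the MCAO library and 0.924 in the control library, and the T-cell-like level 1.27 (MCAO) against 0.785 (control). Along the neutrophil line it was 0.0863 (MCAO) against 0.102 (control) in promyelocyte-like, 0.0794 (MCAO) against 0.0669 (control) in pre-neutrophil-like and 0.106 (MCAO) against 0.118 (control) in immature-neutrophil-like cells. The mature stage was thus higher than each earlier stage in both libraries, with intervals that do not overlap. Monocyte-like cells had 0.487 (MCAO) against 0.672 (control) and erythroid-like cells 0.0262 (MCAO) against 0.0303 (control).

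Gbp3 had its highest level in monocyte-like cells, at 0.515 UMIs per 10000 in the MCAO library and 0.703 in the control library. B-cell-like cells had 0.336 (MCAO) against 0.39 (control), and mature-neutrophil-like cells had 0.0244 (MCAO) against 0.0269 (control), from 15 MCAO and 14 control UMIs. In both libraries the monocyte-like and mature-neutrophil-like intervals do not overlap, whereas the Gbp2 level was the higher in mature-neutrophil-like cells.

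Gbp5, which has been reported to help assemble the NLRP3 inflammasome in mouse macrophages, was sparse. It had 201 UMIs in all MCAO cells and 191 in all control cells. B-cell-like cells had 0.248 UMIs per 10000 in the MCAO library and 0.243 in the control library, monocyte-like cells 0.108 (MCAO) against 0.17 (control), and mature-neutrophil-like cells 0.0163 (MCAO) against 0.0307 (control). Over the same 16 points, Gbp5 and Gbp3 had the highest correlation of any pair of members, with r = 0.91.

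Gbp7, reported to aid assembly of the NADPH oxidase in mouse macrophages, was highest in NK-cell-like cells of the MCAO library and in T-cell-like cells of the control library. The NK-cell-like level was 3.48 UMIs per 10000 in the MCAO library and 2.22 in the control library, and the T-cell-like level was 2.66 (MCAO) against 3.09 (control). Mature-neutrophil-like cells had 1.73 (MCAO) against 2.49 (control), above 0.814 (MCAO) against 1.02 (control) in immature-neutrophil-like and 0.502 (MCAO) against 0.821 (control) in pre-neutrophil-like cells. Plasmacytoid-dendritic-like cells were lowest, at 0.149 (MCAO) against 0.177 (control). Iigp1 and Gbp7 had the lowest correlation of any pair of members over the 16 points, with r = -0.57.

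Set beside the control library, the MCAO library had lower levels of the members in most classes. In all cells together, the sum was 4.18 UMIs per 10000 in the MCAO library and 6.42 in the control library, 1.53-fold lower (95% interval 1.5 to 1.57). Of the 9 members that passed the floor of 50 UMIs with detection in 2% of cells in 1 library (ranked members), 9 had an interval of the ratio below 1, against 32.1% of 10572 ranked genes. Of these 9, 9 were lower, against 57% of ranked genes, and 4 (Irgm1, Igtp, Iigp1 and Tgtp2) were past 1.5-fold, against 3.71% of ranked genes. None was higher past that fold, against 0.776% of ranked genes. Here and below, passing 1.5-fold was judged on log2 ratios with a pseudocount of 0.02 UMIs per 10000, so a low gene whose plain ratio of levels is just over 1.5 may not pass. Their median log2 ratio was -0.58, and the median of all ranked genes was -0.03. All cells mix classes whose shares differ between the libraries. Pro-B-or-pre-B-like cells made up 3.80% of MCAO cells and 13.7% of control cells, so values within a class follow.

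Monocyte-like cells, 900 from the MCAO and 596 from the control library, had a member sum of 5.51 UMIs per 10000 in the MCAO library and 8.63 in the control library, 1.56-fold lower (95% interval 1.5 to 1.63). Of the 9 ranked members, 9 were lower and 6 were past 1.5-fold (Irgm1, Igtp, Iigp1, Ifi47, Tgtp2 and Gbp7), against 2.85% of 10662 ranked genes, and 0 were higher past it, against 2.13%. Their median log2 ratio was -0.62 and that of all genes -0.02. Every interval of the 9 ratios was below 1, against 15.5% of ranked genes. With each cell thinned to 1000 UMIs, the sum was 6.48 (MCAO) against 9.66 (control), with an interval of the ratio from 0.597 to 0.755. Of the 6 members still ranked, 1 was then lower past 1.5-fold, against 5.29% of ranked genes. With a pseudocount of 0.1 the count was 4 of 9, against 1.03% of ranked genes.

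By role, the IRGM regulators Irgm1 and Igtp were 1.18 (MCAO) against 1.81 (control) and 0.299 (MCAO) against 0.501 (control) UMIs per 10000 in these cells, which is 1.54-fold lower (95% interval 1.41 to 1.69) and 1.68-fold lower (95% interval 1.4 to 2). The effector Ifi47 was 1.85 (MCAO) against 2.88 (control) and 1.56-fold lower (95% interval 1.45 to 1.68). Tgtp1 and Tgtp2 together were 0.124 (MCAO) against 0.374 (control) and 3.01-fold lower (95% interval 2.37 to 3.85). Iigp1 rested on 29 MCAO and 58 control UMIs, at 0.0331 (MCAO) against 0.115 (control), and 18 of the control UMIs came from a single cell. Of the GBP members, Gbp7 was 0.924 (MCAO) against 1.4 (control) and 1.51-fold lower (95% interval 1.36 to 1.67), Gbp5 was 0.108 (MCAO) against 0.17 (control) and 1.57-fold lower (95% interval 1.16 to 2.13), Gbp2 was 0.487 (MCAO) against 0.672 (control) and 1.38-fold lower (95% interval 1.19 to 1.59), and Gbp3 was 0.515 (MCAO) against 0.703 (control) and 1.37-fold lower (95% interval 1.19 to 1.57). RNA of neutrophil granule genes was 195 UMIs per 10000 in the MCAO monocyte-like cells and 133 in the control ones. Haemoglobin RNA was 15.5 (MCAO) and 8.57 (control). The part of this background in the ratios was not tested.

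Mature-neutrophil-like cells, with 1643 MCAO and 1696 control cells, had a member sum of 4.55 UMIs per 10000 in the MCAO library and 6.47 in the control library, 1.42-fold lower (95% interval 1.35 to 1.5). Of 6 ranked members, 6 were lower and 2 (Ifi47 and Tgtp2) were past 1.5-fold, against 4.1% of 7202 ranked genes, and 0 were higher past it, against 2.12%. The members' median log2 ratio was -0.55, beside -0.02 over all genes. Ifi47 was 0.473 (MCAO) against 0.861 (control) and 1.82-fold lower (95% interval 1.57 to 2.11). Tgtp1 and Tgtp2 together had 12 MCAO and 45 control UMIs and were 4.43-fold lower (95% interval 2.3 to 9.2). Irgm1, at 0.894 (MCAO) against 1.35 (control), was 1.51-fold lower (95% interval 1.35 to 1.69), and Gbp7, at 1.73 (MCAO) against 2.49 (control), was 1.44-fold lower (95% interval 1.33 to 1.56). Igtp was 0.563 (MCAO) against 0.695 (control) and 1.24-fold lower (95% interval 1.06 to 1.44). For Gbp2, at 0.821 (MCAO) against 0.924 (control), the interval of the ratio, 0.783 to 1.01, includes 1.

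The mature-neutrophil-like class was made of 4 clusters that hold different shares of the libraries, so each was taken alone. Cluster 0, led by Il1b, Clec4d and Ifit3, held 41.9% of the MCAO cells and 55.2% of the control cells of the class, and had the highest member sum of the 4 in both libraries, at 8.26 (MCAO) against 9.8 (control). Cluster 3, led by Mmp8 and Mmp9, held 22.1% (MCAO) and 24.4% (control) and had 2.69 (MCAO) against 3.85 (control). Cluster 5, led by Retnlg, held 18.7% (MCAO) and 19.5% (control) and had 3.82 (MCAO) against 4.76 (control). Cluster 13, led by stefin genes such as Stfa2 and Stfa3, had 284 MCAO cells and 14 control cells and a sum of 2.67 (MCAO) against 5.82 (control). The sum was lower in the MCAO library within each cluster, 1.19-fold lower (95% interval 1.11 to 1.27) in cluster 0, 1.43-fold lower (95% interval 1.27 to 1.6) in cluster 3 and 1.25-fold lower (95% interval 1.1 to 1.42) in cluster 5. The log2 ratio was -0.25 in cluster 0, beside -0.51 in the whole class, and the class without cluster 13 gave -0.37.

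Cluster 0 itself does not hold like shares of the libraries. At resolution 2 its cells fell mainly into 3 finer clusters. The first held 24.9% of its MCAO cells and 78.4% of its control cells, the second 61.5% (MCAO) and 5.55% (control), and the third 13.7% (MCAO) and 16% (control). In the first finer cluster, with 172 MCAO and 746 control cells in all and led by Hcar2, Clec4d and Il1b, the member sum was higher in the MCAO library, at 12.1 UMIs per 10000 (MCAO) against 9.08 (control), with a ratio of 1.33 (95% interval 1.21 to 1.46). In the second, with 437 MCAO and 55 control cells and led by Stfa2l1 and Gm5483, it was 5.28 (MCAO) against 7.18 (control), with a ratio of 0.736 (95% interval 0.582 to 0.942). In the third, with 94 MCAO and 150 control cells, it was 16.6 (MCAO) against 16 (control), and the interval of the ratio, 0.884 to 1.2, includes 1. Gbp7 was 4.52 (MCAO) against 3.15 (control) in the first and 1.86 (MCAO) against 4.18 (control) in the second. The direction of the difference in cluster 0 therefore depends on how finely its cells are drawn, and the lower sum of the whole class cannot be told apart from a different makeup of its cells in each library. The other mature-neutrophil-like clusters drawn at resolution 2 with at least 50 cells per library were lower in the MCAO library, at 2.68 (MCAO) against 3.8 (control) and 3.92 (MCAO) against 4.63 (control).

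Single members differed between clusters 0, 3 and 5. Ifi47 was lower in cluster 0, at 0.874 (MCAO) against 1.4 (control), and in cluster 3, at 0.267 (MCAO) against 0.427 (control). In the first finer cluster of cluster 0, Ifi47 was 1.38 (MCAO) against 1.24 (control), with an interval of the ratio from 0.833 to 1.47. Gbp7 was 1.64-fold lower (95% interval 1.38 to 1.95) in cluster 3 and 1.16-fold lower (95% interval 1.03 to 1.3) in cluster 0. Igtp was 0.913 (MCAO) against 0.997 (control) in cluster 0 and 0.419 (MCAO) against 0.365 (control) in cluster 3, with intervals of the ratio that include 1, and was 1.55-fold lower (95% interval 1.09 to 2.24) in cluster 5. Gbp2 was 1.82 (MCAO) against 1.69 (control) in cluster 0 and 0.634 (MCAO) against 0.561 (control) in cluster 5, where the MCAO value is the higher, with intervals of the ratio that include 1 in both.

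The monocyte-like class had 2 large clusters. Cluster 2, led by Vcan, Ms4a8a and Ccr2, had a member sum of 7.87 (MCAO) against 13.3 (control), and cluster 7, led by Itga1 and F13a1 and with a higher median of 12846 UMIs per cell, had 3.96 (MCAO) against 6.2 (control). The sum was 1.68-fold lower (95% interval 1.59 to 1.78) in cluster 2 and 1.57-fold lower (95% interval 1.47 to 1.67) in cluster 7. Igtp in cluster 2 was 0.432 (MCAO) against 0.866 (control) and 2.01-fold lower (95% interval 1.59 to 2.53). Gbp2 was 0.929 (MCAO) against 1.3 (control) in cluster 2 and 0.188 (MCAO) against 0.33 (control) in cluster 7, where it was 1.76-fold lower (95% interval 1.32 to 2.34). Iigp1 ran in opposite directions in the pair of clusters. It had 8 MCAO and 50 control UMIs in cluster 2, and 21 MCAO and 8 control UMIs in cluster 7, where the interval of the ratio, 0.689 to 4.23, includes 1. At resolution 2 both large monocyte-like clusters were again lower, at 7.85 (MCAO) against 13.4 (control) and 3.76 (MCAO) against 6.18 (control).

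**Figure D3:**
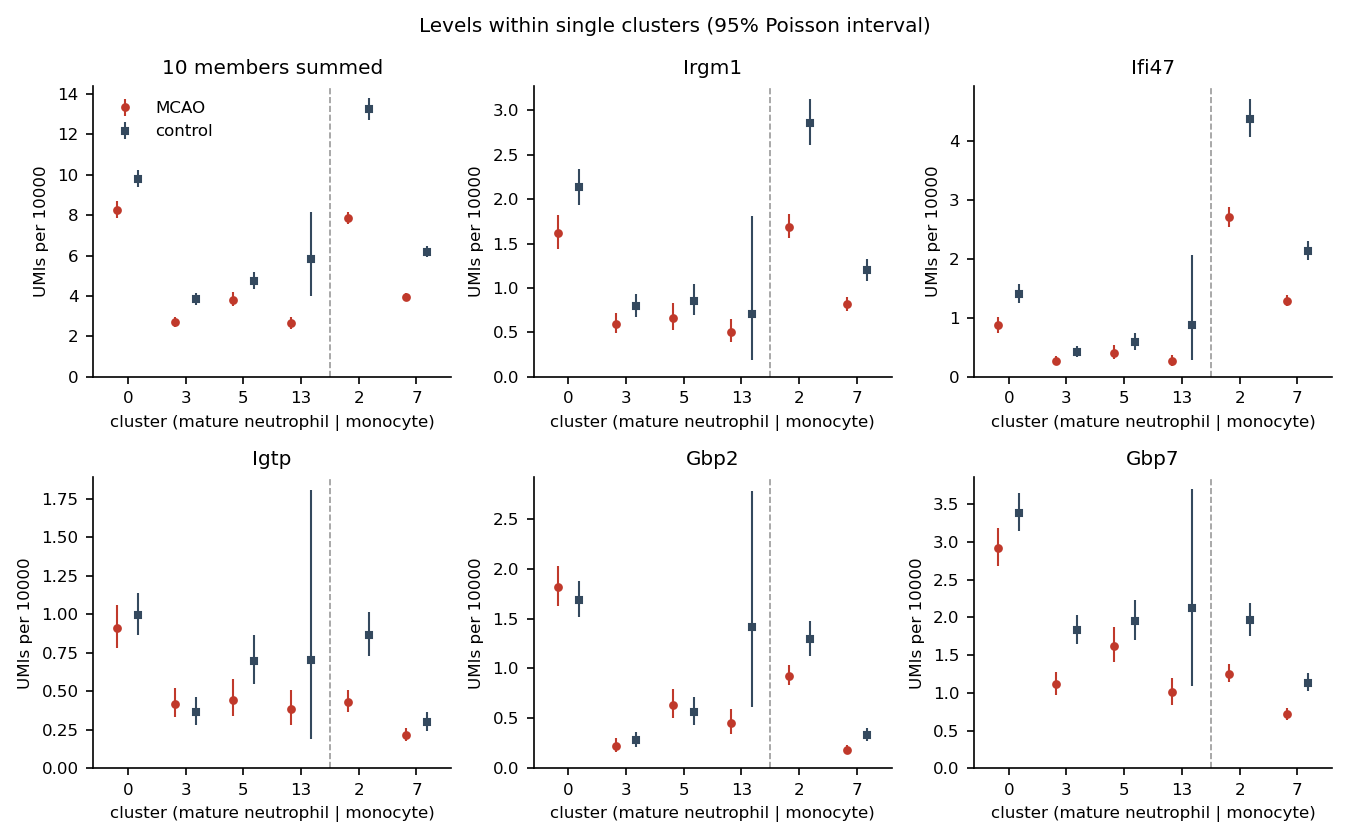
Level (UMIs per 10000) of the summed members and of 5 members in the 4 mature-neutrophil-like clusters (0, 3, 5 and 13, left of the dashed line) and the 2 large monocyte-like clusters (2 and 7), MCAO as red circles left of control as dark squares, with exact Poisson 95% intervals. The sum is lower in the MCAO library in all 6 clusters, while Gbp2 in cluster 0 is 1.82 (MCAO) against 1.69 (control) with overlapping intervals.

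In the B line, B-cell-like cells had a member sum of 5.86 UMIs per 10000 in the MCAO library and 8.02 in the control library, 1.37-fold lower (95% interval 1.25 to 1.5). Of 8 ranked members 7 were lower and 2 (Tgtp2 and Gbp2) were past 1.5-fold, against 5.5% of 7441 ranked genes, and 0 were higher past it, against 3.98%. Tgtp2 was 0.168 (MCAO) against 0.428 (control), from 23 MCAO and 67 control UMIs, and Gbp2 0.248 (MCAO) against 0.415 (control). Irgm1 was 1.44-fold lower (95% interval 1.22 to 1.7) and Ifi47 1.36-fold lower (95% interval 1.15 to 1.6), while Gbp7, at 0.847 (MCAO) against 0.914 (control), and Gbp5, at 0.248 (MCAO) against 0.243 (control), had intervals of the ratio that include 1. Pro-B-or-pre-B-like cells had a sum of 5.34 (MCAO) against 6.96 (control), 1.3-fold lower (95% interval 1.19 to 1.44), and 2 of 8 ranked members (Iigp1 and Tgtp2) lower past 1.5-fold, against 8.41% of 8096 ranked genes, and 0 higher past it, against 5.53%. Their IRG sum was 1.42-fold lower (95% interval 1.28 to 1.59), whereas their GBP sum was 1.25 (MCAO) against 1.14 (control), with an interval of the ratio from 0.881 to 1.35. In cluster 6, the largest of this class with 115 MCAO and 496 control cells, the member sum was 8.29 (MCAO) against 8.7 (control), and the interval of its ratio, 0.812 to 1.11, includes 1. After thinning, the log2 ratio of this class's sum, -0.38, was -0.067. Of 4 members then ranked, 0 were lower past the fold, against 9.2% of ranked genes. With every cell weighted the same, the log2 ratio of the sum was -0.16.

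T-cell-like cells, with 89 MCAO and 92 control cells, had 2 of 6 ranked members lower past 1.5-fold (Irgm1 and Tgtp2), against 10.5% of 3101 ranked genes, and 1 higher (Gbp2), against 6.58%. Irgm1 was 0.622 UMIs per 10000 in the MCAO library and 1.18 in the control library, 1.89-fold lower (95% interval 1.1 to 3.35). Tgtp1 and Tgtp2 together were 1.77-fold lower (95% interval 1.12 to 2.84). Gbp2 was 1.27 (MCAO) against 0.785 (control), with an interval of the ratio from 0.994 to 2.68, and its log2 ratio of 0.68 turned to -0.20 when every cell was thinned to 1000 UMIs. The IRG sum was 1.3-fold lower (95% interval 1.09 to 1.54), and the GBP sum, at 4.41 (MCAO) against 4.29 (control), had an interval that includes 1.

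NK-cell-like cells, with 43 MCAO and 39 control cells, were the class in which the member sum was higher in the MCAO library. The sum was 9.95 UMIs per 10000 in the MCAO library and 7.85 in the control library, from 200 MCAO and 209 control UMIs, with a ratio of 1.27 (95% interval 1.04 to 1.55). Gbp7 was 3.48 (MCAO) against 2.22 (control), with a ratio of 1.57 (1.1 to 2.26), and was the 1 of 2 ranked members higher past 1.5-fold, against 8.49% of 2015 ranked genes, while 0 were lower past it, against 10.6%. Ifi47 was 2.89 (MCAO) against 3.12 (control), with an interval of the ratio that includes 1. Median depth moved with the library here, at 3299 UMIs per MCAO cell and 5368 per control cell. After thinning to 1000 UMIs, 38 MCAO and 38 control member UMIs were left, the log2 ratio of the sum was -0.18 with an interval of the ratio from 0.549 to 1.42, and that of Gbp7 was -0.071. The log2 ratio of the sum was 0.35 in cells of at least 2000 UMIs, 0.44 without marked doublets and 0.0013 with every cell weighted the same, so its direction was not the same under all alternatives.

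Macrophage-like cells, with 61 MCAO and 91 control cells, had 3 of 6 ranked members lower past 1.5-fold (Igtp, Iigp1 and Tgtp2), against 15% of 2801 ranked genes, and 0 higher past it, against 8.03%. Iigp1 was 1.29 (MCAO) against 2.3 (control), 1.78-fold lower (95% interval 1.23 to 2.6), and Tgtp2 was 0.294 (MCAO) against 1 (control), 3.41-fold lower (95% interval 1.68 to 7.64). Of the control Tgtp2 UMIs, 10 (24.4%) sat in a single cell. Gbp2 had 8 MCAO and 29 control UMIs, 3.02-fold lower (95% interval 1.35 to 7.63). Gbp5 had 0 MCAO UMIs, where 3 UMIs would be a level of 0.0882, and 8 control UMIs, a level of 0.196. Of these 8, 4 sat in a single cell. In the same class neutrophil granule RNA was 1368 UMIs per 10000 in the MCAO library and 854 in the control library, and median depth was 5720 (MCAO) and 3005 (control) UMIs per cell. The part of the granule RNA in these ratios was not tested. With every cell thinned to the same depth, the member sum was 9.17 (MCAO) against 9.6 (control), from 55 MCAO and 72 control UMIs. The interval of that ratio, 0.66 to 1.38, includes 1, so a lower sum in this class was not seen at equal depth. Over the alternatives the log2 ratio of the member sum in this class lay between -0.76 and -0.07, and the thinned value is -0.07.

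Plasmacytoid-dendritic-like cells had 2 of 5 ranked members lower past 1.5-fold, Igtp and Iigp1, against 6.38% of 6070 ranked genes, and 0 higher past it, against 6.16%. Igtp was 0.288 (MCAO) against 0.587 (control) and 2.04-fold lower (95% interval 1.24 to 3.39), and Iigp1 was 0.347 (MCAO) against 0.778 (control) and 2.24-fold lower (95% interval 1.45 to 3.52). Ifi47, at 2.26 (MCAO) against 2.51 (control), and Tgtp2, at 0.397 (MCAO) against 0.369 (control), had intervals of the ratio that include 1. Irgm1, at 1.22 (MCAO) against 1.82 (control), was 1.49-fold lower (95% interval 1.15 to 1.92). In the finer plasmacytoid-dendritic-like cluster the member sum was 5.42 (MCAO) against 6.74 (control), a log2 ratio of -0.31 beside -0.40 for the class, and all Iigp1 UMIs of the split were there, with a level of 0.594 (MCAO) against 1.11 (control). In the conventional-dendritic-like one the sum was 4.19 (MCAO) against 5.77 (control). After thinning the whole class, 0 of 1 ranked member was past the fold, against 6.58% of ranked genes lower past it. The log2 ratio of the sum was then -0.18, with an interval of the ratio from 0.661 to 1.18.

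Cluster 14 had the lowest ratio of the member sum among the 14 populations, at 4.72 UMIs per 10000 in the MCAO library and 8.92 in the control library, 1.89-fold lower (95% interval 1.74 to 2.05). Of 8 ranked members, 8 were lower and 6 were past 1.5-fold (Irgm1, Igtp, Iigp1, Ifi47, Tgtp2 and Gbp7), against 4.62% of 8435 ranked genes, and 0 were higher past it, against 3.31%. Tgtp2 was 0.378 (MCAO) against 1.37 (control), from 79 MCAO and 225 control UMIs, and 3.61-fold lower (95% interval 2.78 to 4.73). Iigp1 was 0.196 (MCAO) against 0.565 (control) and 2.88-fold lower (95% interval 1.97 to 4.26). Its MCAO UMIs came from 13 cells, with 15 of them (36.6%) in a single cell, and its control UMIs from 26 cells. Irgm1 was 1.01 (MCAO) against 1.88 (control) and 1.87-fold lower (95% interval 1.57 to 2.24). For Igtp, at 0.278 (MCAO) against 0.492 (control), the log2 ratio of -0.78 turned to 0.58 after thinning, which left 7 MCAO and 4 control UMIs, so its direction in this cluster is not settled. After thinning 0 of 1 ranked member was past the fold, against 7.33% of ranked genes lower past it, while the log2 ratio of the sum was -0.79.

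Erythroid-like cells had a member sum of 4.46 (MCAO) against 6.83 (control), 1.53-fold lower (95% interval 1.4 to 1.68), and 3 of 5 ranked members (Irgm1, Igtp and Tgtp2) lower past 1.5-fold, against 7.52% of 7060 ranked genes, and 0 higher past it, against 2.69%. Ifi47 was level there, at 0.852 UMIs per 10000 in the MCAO library and 0.84 in the control library, and its interval of the ratio runs from 0.8 to 1.29. Gbp7 was 1.59 (MCAO) against 2.38 (control) and 1.49-fold lower (95% interval 1.28 to 1.74).

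In the earlier neutrophil stages, pre-neutrophil-like cells had 3 of 4 ranked members lower past 1.5-fold (Irgm1, Igtp and Gbp7), against 3.23% of 7560 ranked genes, 0 higher past it, against 3.33%, and a sum of 1.6 (MCAO) against 2.37 (control). Gbp7 was 0.502 UMIs per 10000 in the MCAO library and 0.821 in the control library, 1.64-fold lower (95% interval 1.32 to 2.03). The count of 3 was 1 of 4 with the members and interferon targets kept in the clustering, against 3.03% of ranked genes. With a pseudocount of 0.1 it was 1 of 4, against 1.08%, and after thinning no member passed the floor. Immature-neutrophil-like cells had 0 of 5 ranked members lower past 1.5-fold, against 3.28% of 7236 ranked genes, and 0 higher, against 2.9%, and the sum, at 2.09 (MCAO) against 2.54 (control), was 1.21-fold lower (95% interval 1.1 to 1.34). Igtp was 0.36 (MCAO) against 0.355 (control) there, and the interval of the ratio, 0.779 to 1.33, includes 1. Promyelocyte-like cells had 1 of 5 ranked members, Igtp, lower past 1.5-fold, against 2.83% of 8436 ranked genes, and 0 higher past it, against 4.05%. It was 0.15 (MCAO) against 0.358 (control) and 2.38-fold lower (95% interval 1.61 to 3.53), but its log2 ratio of -1.15 turned to 0.39 after thinning, which left 6 MCAO and 2 control UMIs, and that of the member sum, -0.45, ran from -0.60 to 0.043 over the alternatives. Basophil-or-mast-like cells had 0 of 2 ranked members lower past the fold, against 9.27% of 2481 ranked genes, 0 higher, against 8.38%, and a sum of 4.64 (MCAO) against 4.83 (control).

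**Figure D4:**
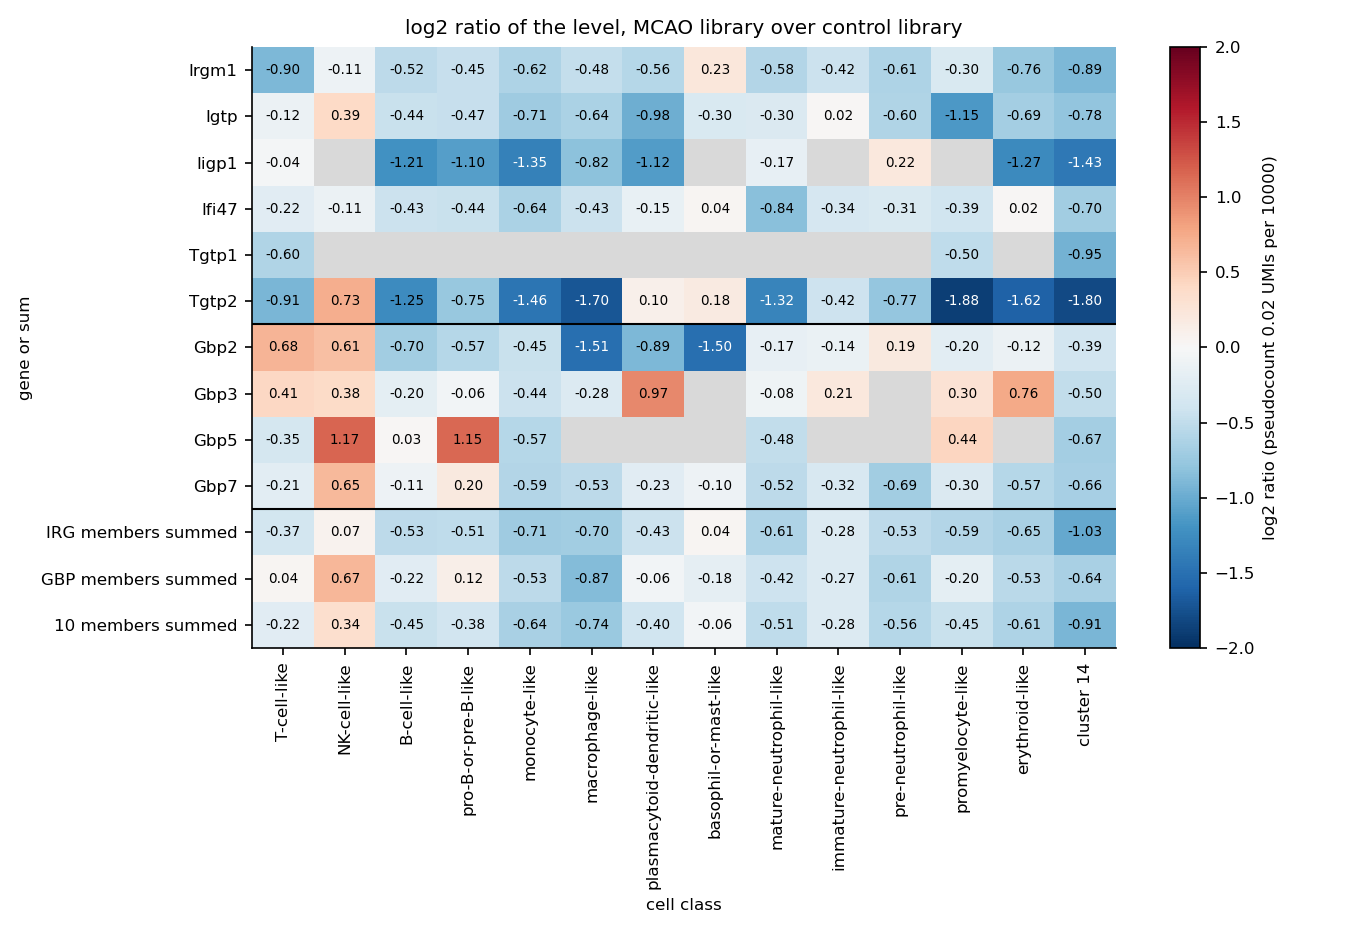
log2 ratio (MCAO library over control library, pseudocount 0.02 UMIs per 10000) of each member and of the family sums in 14 cell populations, with blue lower and red higher in MCAO and grey where both libraries together had under 10 UMIs. The bottom row, the sum of 10 members, is below 0 in 13 of 14 populations, from -0.91 in cluster 14 to -0.06 in basophil-or-mast-like cells, and is 0.34 in NK-cell-like cells.

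Across the 14 populations at full depth, the interval of the ratio of the member sum was below 1 in 12, above 1 in NK-cell-like cells and included 1 in basophil-or-mast-like cells. Over all ranked genes the share with an interval below 1 ran from 7.55% in promyelocyte-like to 17.7% in mature-neutrophil-like cells. By member, Irgm1 had an interval below 1 in 10 of 14 populations and Tgtp2 in 9, while Gbp2 had it in 3 of 14. Of populations with at least 10 UMIs over both libraries, Gbp3 had it in 1 of 12 and Gbp5 in 1 of 8. Gbp7 had it in 7 and an interval above 1 in NK-cell-like cells. The interval of the ratio lay below 1 in 12 populations for the IRG sum and in 7 for the GBP sum. A family difference in ratio was not tested, because 1 library per group gives no spread to test it with.

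Counted per cell after thinning, the share of cells with any member was lower in the MCAO library in 11 of 14 populations and higher in 3. After every cell was thinned to 1000 UMIs, 38.0% of 899 MCAO monocyte-like cells and 52.6% of 586 control ones had a UMI of at least 1 member, beside 86.8% (MCAO) and 92.8% (control) before thinning. At 3 or more members per cell the thinned shares were 3.11% (MCAO) and 5.8% (control). Among mature-neutrophil-like cells, 31.9% of 1642 MCAO cells and 39.8% of 1643 control cells had at least 1 member after thinning. T-cell-like shares were 65.1% of 86 MCAO cells and 64.8% of 88 control cells, although 3 or more members were found in 3.49% (MCAO) and 17% (control) of them. Macrophage-like cells had the larger share in the MCAO library, 53.3% of 60 MCAO cells and 40% of 75 control cells, and promyelocyte-like shares were 20.9% (MCAO) and 20.8% (control). Pre-neutrophil-like cells, with the lowest summed level, had 12.2% (MCAO) and 18.3% (control) after thinning and 58.2% (MCAO) and 75.2% (control) before it, at median depths of 9868.5 (MCAO) and 8976 (control) UMIs. No class was known to lack all members, so a background share from free RNA could not be set apart. The most members found in 1 thinned cell was 6 of 10, in each library.

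Single members followed the same way in monocyte-like cells for Irgm1 and Tgtp2. After thinning to 1000 UMIs, Irgm1 was found in 11.7% of MCAO cells (exact 95% interval 9.65 to 14) and 19.1% of control cells (16 to 22.5), beside 53.6% (MCAO) and 65.8% (control) before thinning. Tgtp2 was found in 0.556% of MCAO cells and 3.07% of control cells, with intervals that do not overlap. Gbp3 was found in 5.01% (MCAO) and 4.61% (control), with overlapping intervals, but at 2000 UMIs in 7.07% (MCAO, 5.46 to 8.97) and 13.5% (control, 10.8 to 16.6), so its share depends on the depth chosen.

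The other genes of the pathway were taken from lists written with earlier results of these data known. Of 19 other IRG and GBP genes, 17 were in the table and 8 were ranked in all cells. All 8 were lower, against 57% of all ranked genes, and 4 were past 1.5-fold, against 3.71%, with a median log2 ratio of -0.57. Gbp9 was 0.179 (MCAO) and 0.369 (control) UMIs per 10000, with a log2 ratio of -0.96, Gbp4 0.085 (MCAO) and 0.183 (control) with a log2 ratio of -0.95, and Gm12250, also known as Irgb10, 0.149 (MCAO) and 0.266 (control) with a log2 ratio of -0.76. Irgm2, the remaining IRGM gene, differed less, at 0.638 (MCAO) and 0.744 (control) with a log2 ratio of -0.22.

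Ifng, the ligand of the interferon gamma receptor, had 20 UMIs in MCAO cells and 31 in control cells. Of 11 interferon-gamma receptor and signalling genes, 11 were ranked in all cells, with 7 lower, 4 higher, 0 past 1.5-fold and a median log2 ratio of -0.07. Of all ranked genes, 57% were lower, 3.71% were lower past 1.5-fold and 0.776% higher past it. The receptor chain Ifngr1 was 1.68 (MCAO) and 1.32 (control) UMIs per 10000 with a log2 ratio of 0.34. Socs3, a feedback inhibitor of JAK kinases, was 0.172 (MCAO) and 0.0416 (control) in monocyte-like cells with a log2 ratio of 1.64. Socs1, the feedback inhibitor of interferon gamma signalling, was 0.0548 (MCAO) and 0.0991 (control) there with a log2 ratio of -0.67.

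Of 16 genes that type I interferon leads, 16 were lower in all cells and 10 past 1.5-fold, beside the same 57% and 3.71% of ranked genes, with a median of -0.66. In monocyte-like cells 16 of 16 were lower and 8 past 1.5-fold, with a median of -0.62, where 52.9% of ranked genes were lower and 2.85% past the fold. In mature-neutrophil-like cells 14 of 14 ranked were lower and 7 past 1.5-fold, with a median of -0.57, where 52.6% of ranked genes were lower and 4.1% past the fold. Ifi44 was 0.316 (MCAO) and 1.11 (control) UMIs per 10000 in monocyte-like cells, and Ifit3 3.95 (MCAO) and 8.36 (control) in mature-neutrophil-like cells. Of 16 interferon-gamma-led targets, 10 were ranked in all cells, 9 were lower and 2 past 1.5-fold, with a median of -0.25, beside the same 57% and 3.71% of ranked genes. In monocyte-like cells this list had 8 lower of 11 ranked and 1 lower past 1.5-fold, with a median of -0.18, where 52.9% and 2.85% of ranked genes were so. In mature-neutrophil-like cells it had 5 lower and 4 higher of 9 ranked and 1 lower past 1.5-fold, with a median of -0.0018. There 52.6% of ranked genes were lower and 4.1% past the fold. Over the populations the median of this list ran from -0.43 in erythroid-like to 0.74 in basophil-or-mast-like cells, where 4 genes were ranked. Nlrc5, which drives MHC class I genes, was 0.33 (MCAO) and 0.542 (control) in all cells with a log2 ratio of -0.69. The list medians are descriptions, and no difference between lists was tested.

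Partners that act with the GTPases at the protein level were taken as 2 further lists. Of 10 autophagy conjugation genes, which place the GTPases on vacuoles, 4 were lower and 6 higher in all cells and 0 were past 1.5-fold, with a median of 0.04. Among all ranked genes, 57% were lower, 3.71% were lower past 1.5-fold and 0.776% higher past it. Of 9 inflammasome and pyroptosis genes, 8 were ranked, 7 were lower and 1 past 1.5-fold in all cells, against 57% and 3.71% of ranked genes. That gene was Il1b, at 1.32 (MCAO) and 2.01 (control) UMIs per 10000 with a log2 ratio of -0.60. Nlrp3, which Gbp5 has been reported to act with, was 0.709 (MCAO) and 0.952 (control) with a log2 ratio of -0.41. Both are values of all cells, which mix classes whose shares differ between the libraries. In mature-neutrophil-like cells 0 of 8 ranked inflammasome genes were lower past 1.5-fold, against 4.1% of ranked genes, and 1 was higher, against 2.12%. In monocyte-like cells 0 of 9 were lower past it, against 2.85%, and 0 higher, against 2.13%.

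**Figure D5:**
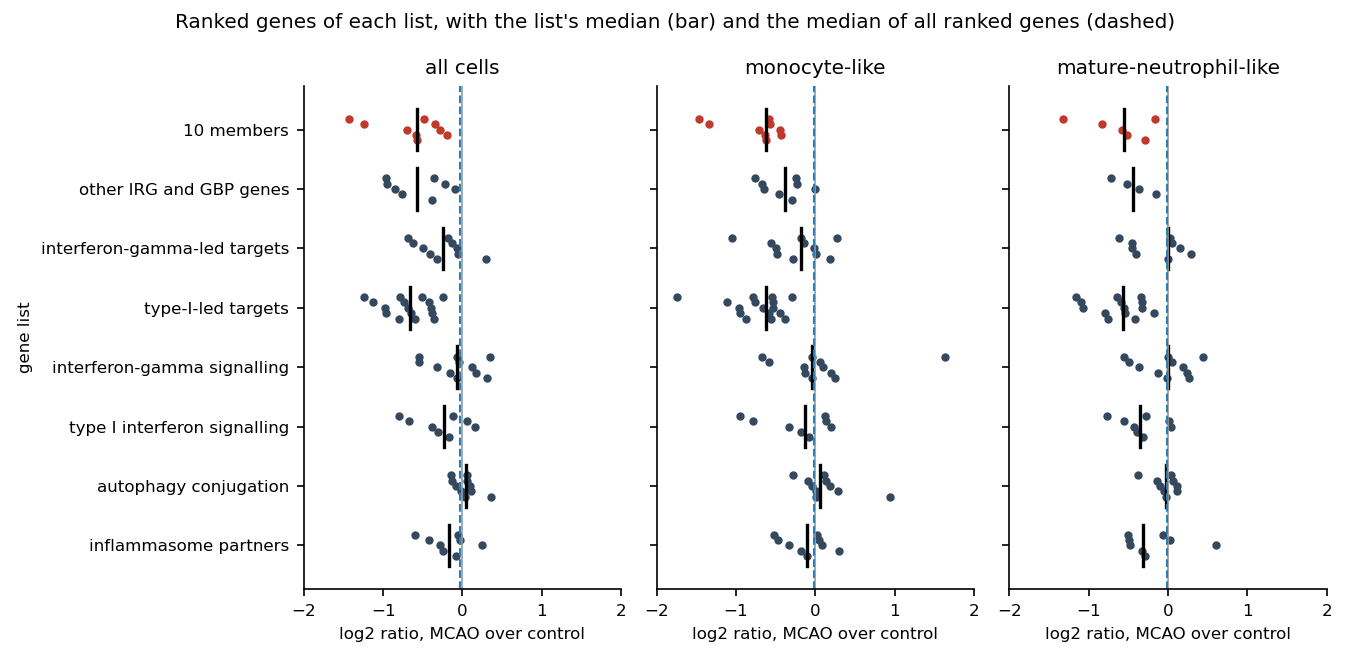
log2 ratio (MCAO over control) of every ranked gene of 8 gene lists in all cells, monocyte-like and mature-neutrophil-like cells, with a bar at each list's median and a dashed line at the median of all ranked genes. The members (red) have medians of -0.58, -0.62 and -0.55, and the autophagy conjugation genes have medians of 0.042, 0.06 and -0.026.

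Over the 16 points of class and library, the genes outside both families whose log2 level was most like the IRG sum were Trim25 (r = 0.95), 2410006H16Rik (r = 0.94), Ifi35 (r = 0.94), Vcpip1 (r = 0.94) and Aim2 (r = 0.93). Those most like the GBP sum were Focad (r = 0.89), Dtd1 (r = 0.83), Oas1c (r = 0.82), Cnppd1 (r = 0.81) and AL626769.2 (r = 0.80). The lists of 5 have no gene in common. Focad and AL626769.2 had 115 and 79 UMIs over all cells of both libraries, and no more than that in these classes, so their likeness rests on low counts.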

How the data were processed

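Whole-transcriptome libraries were made on the BD Rhapsody system and sequenced as paired ends, per the labels' protocols. Seurat 4.0.6, STAR, fastp, UMI-tools and the build mm10 appear in the submitters' processing notes. Tool settings, strand handling, the gene annotation and any cell filter are not given in the sources used here. As deposited by the authors, values are natural log, ln(1 + UMIs per 10000 UMIs of the cell), for 25943 genes and 10610 cells. Turned back to UMIs, 100% of nonzero values were whole within 0.01. The library of a cell was read from the Mandarin word that opens its column name (stroke or control), by translation. Cell names hold running numbers, so shared barcodes could not be counted.

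Cells were clustered with scanpy 1.11.5 and leidenalg 0.10.2 (2000 variable genes, 30 principal components, 20 neighbours, resolution 1), leaving 42 genes, the members and interferon targets, out of the variable genes. Doublet scoring against simulated doublets marked 62 MCAO and 51 control cells (1.15% and 0.979%), which were kept. No cell filter was added. A cluster's name needed at least 3 detected markers. The clusters 9, 13, 19 and 22 were named by marker score. UMIs were summed per class and library. Levels have exact Poisson intervals, shares exact Clopper-Pearson intervals and ratios exact conditional binomial intervals, at 95%. Counts with 1 library per group allow no test. A gene was ranked in a class with at least 50 UMIs and above 0 in 2% of cells of 1 library. Log2 ratios used a pseudocount of 0.02 UMIs per 10000, which understates changes of low genes, and 1.5-fold was the threshold. The intervals and the counting were tried on summed counts simulated from a Poisson model with the mature-neutrophil-like totals. Clumping of UMIs in single cells was not simulated, so the trial does not cover it. Promoters came from RefSeq (GRCm38.p6) and positions from GENCODE M21. The members, marker lists and gene lists were chosen with earlier results of these data known. All members were named, with up to 4 genes of each list by the size of the log2 ratio and, chosen after their values were seen, Irgm2 and Ifng. Clusters were also drawn at resolution 2 and taken singly, which was chosen after seeing the data. Alternatives are given in the closing section.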

Additional observations from a re-analysis of the deposited data

Results flagged for a closer look

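In NK-cell-like cells the ratio ran opposite to most other classes, and the difference between classes was not tested. At full depth, the log2 ratio of the 10 members summed was 0.34 (200 MCAO and 209 control UMIs), where 12 other populations had an interval below 1. That of the GBP members summed was 0.67 (100 MCAO and 83 control UMIs) and that of Gbp7 was 0.65 (70 MCAO and 59 control UMIs), where 7 other populations each had an interval below 1.

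Among pro-B-or-pre-B-like cells, Gbp5 had a log2 ratio of 1.15, from 13 MCAO and 11 control UMIs, whereas its interval was below 1 in macrophage-like and monocyte-like cells. Those 13 UMIs came from 6 MCAO cells, and 4 of them from a single cell. This difference was not tested either.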

How the results depend on the processing

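Of 164 summed ratios recomputed under alternatives, 151 were below 0 and 5 had the other sign than the reported value: 2 after thinning to 1000 UMIs (NK-cell-like, -0.18, and promyelocyte-like, 0.043), 1 in basophil-or-mast-like cells (0.016), and 2 in single mature-neutrophil-like clusters drawn at resolution 2. Of 952 single-member ratios 66 had the other sign, in 54 of which the reported ratio was within 1.5-fold and in 12 past it. The log2 ratio of the member sum in all cells, -0.62, was -0.50 after thinning, -0.58 with every cell weighted the same and -0.58 with median ratio scaling. In immature-neutrophil-like cells it was -0.44 at resolution 0.5, beside -0.28. In mature-neutrophil-like cells, beside -0.51, it was -0.40 with the members and interferon targets kept in the clustering, -0.60 at resolution 0.5, -0.41 after thinning, -0.25 in cluster 0 alone and -0.32 in cluster 5 alone. In monocyte-like cells, beside -0.64, it was -0.57 after thinning and -0.75 in cluster 2 alone.

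Further alternatives were chosen after seeing the data. Without cluster 13 the mature-neutrophil-like value was -0.37. In single clusters drawn at resolution 2 it was 0.41 in cluster 1, -0.24 in cluster 5, -0.44 in cluster 9 and 0.045 in cluster 14 of that clustering. The monocyte-like value was -0.77 in its cluster 2 and -0.71 in its cluster 10, and the B-cell-like value, -0.45, was -0.31 in its cluster 8.

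Counts of members lower past 1.5-fold moved by over 1.5 times as follows. After thinning, where the floor of 50 UMIs leaves fewer members ranked, the count was 2 of 6 ranked in all cells (reported 4 of 9), 1 of 6 in monocyte-like (6 of 9), 1 of 5 in mature-neutrophil-like (2 of 6), 0 of 4 in pro-B-or-pre-B-like (2 of 8), 0 of 2 in T-cell-like (2 of 6), 1 of 2 in erythroid-like (3 of 5) and 0 of 1 in plasmacytoid-dendritic-like cells (2 of 5) and 0 of 1 in cluster 14 (6 of 8), and none was ranked in macrophage-like, pre-neutrophil-like and promyelocyte-like cells (3 of 6, 3 of 4 and 1 of 5). With a pseudocount of 0.1 it was 1 in B-cell-like (2.98%), mature-neutrophil-like (1.47%) and pre-neutrophil-like cells (1.08%). With the genes kept in it was 1 in mature-neutrophil-like (4.15%) and pre-neutrophil-like (3.03%) and 5 in erythroid-like cells (4.31%). At resolution 2 it was 5 in erythroid-like (4.36%) and 3 in promyelocyte-like cells (2.66%). In mature-neutrophil-like cells it was 1 in cells of at least 2000 UMIs (3.95%) and in clusters 0 (6.1%) and 5 (5.46%) alone. Of the clusters drawn at resolution 2, it was 1 in clusters 5 (5.52%), 9 (13.5%) and 14 (10.9%) and 0 in cluster 1 (10.3%). With every cell weighted the same it was 1 in plasmacytoid-dendritic-like (8.83%) and 2 in promyelocyte-like cells (5.32%). In pro-B clusters 6 (10.7%) and 15 (8.26%) alone it was 0. With the lower floor it was 1 in basophil-or-mast-like (reported 0, 20.1%) and 2 in promyelocyte-like cells (6.24%).

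Ratios past 1.5-fold that changed sign were Gbp7 in NK-cell-like cells (-0.071), Gbp2 in T-cell-like cells (-0.20), Iigp1 of the pro-B-or-pre-B-like class (0.11), Igtp in promyelocyte-like cells (0.39) and Igtp in cluster 14 (0.58), each after thinning, Iigp1 in monocyte cluster 7 alone (0.43) and in monocyte cluster 10 drawn at resolution 2 (0.53), Tgtp2 in pro-B cluster 6 alone (0.019), and in mature-neutrophil-like clusters drawn at resolution 2 Ifi47 (0.15 in cluster 1, 0.12 in cluster 9) and Tgtp2 (0.065 in cluster 1, 0.50 in cluster 9). The causes were not tested. No paired analysis was possible because each group has 1 library. Depth limits Tgtp1, Iigp1 and Gbp5 most, with 47, 203 and 201 UMIs over all MCAO cells and 87, 423 and 191 over all control cells. A single library per group cannot tell the condition from the library, and class names were rebuilt and may differ from those of the study.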

Other observations

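The eosinophil-like and plasma-cell-like classes had too few cells for a comparison. Eosinophil-like cells gave 27 member UMIs in 19 MCAO cells and 31 in 23 control cells. Plasma-cell-like cells gave 16 member UMIs in 6 MCAO cells and 55 in 10 control cells.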
